A study of Mus musculus with 18 samples.

Results

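The DNA replication genes are 44 mouse genes whose products license, unwind and copy the chromosomes in S phase. They were chosen by name for that role, with earlier results of these data known. The symbols of 37 of the 44 stand in the gene list of each of the 18 libraries, among 20207 genes listed there, and all 37 were among the 12731 genes tested. The other 7 (Orc1 to Orc6 and Cdc45) are listed under the older symbols Orc1l to Orc6l and Cdc45l, so they were looked up through these and are counted apart from the 37. Transcript levels were measured by mRNA-seq in NIH3T3 cells, an established line of mouse embryo fibroblasts. All 18 cultures carried DD-sfGFP, a destabilizing domain (DD) fused to superfolder green fluorescent protein, were a population sorted for high fluorescence and were kept in the ligand Shield-1 (S1) that holds the domain folded. The 6 groups of 3 samples were the control at 37 °C without tunicamycin (0 min), heat shock (HS) at 42 °C for 45 and 135 min, and 5 µM tunicamycin, which blocks N-linked glycosylation in the endoplasmic reticulum, for 45, 135 and 405 min. The 5 stress groups were compared with the same 3 control samples, taken at 0 min. The series holds no untreated sample at a later time, so stress and elapsed time cannot be told apart. In the study these stresses served as references for the heat shock response and for the unfolded protein response of the endoplasmic reticulum. Whether the 3 samples of a group were separate cultures is not given in the sources used here, so the p-values measure the spread between these samples, which may be technical.

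Chromosomes are copied once per cell cycle from origins that are prepared and fired in separate steps. The origin recognition complex (ORC), with Cdc6 and Cdt1, loads the ring-shaped MCM2-7 helicase onto DNA in G1. In S phase Cdc45 and the GINS complex activate the helicase, primase and DNA polymerases alpha, delta and epsilon copy the strands, and a clamp, its loader, a single-strand binding protein, a flap nuclease and a ligase complete them. Most of these genes are transcribed under E2F factors as cells pass from G1 into S phase. In a bulk RNA sample, fewer cells in S phase and less transcript per cell cannot be told apart.

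The libraries held 33415592 to 66478268 reads on genes, of which the 37 listed members took 0.502% to 0.590% in the control and 0.272% to 0.297% at 405 min of tunicamycin. Levels are given in CPM, read counts brought to a common library size after TMM scaling over the 18 libraries, and 3 reads, taken as the floor, stood for 0.0451 to 0.0898 CPM (counting error only). All 7 fibroblast markers looked at were at 68.5 CPM or more in every library, while of 9 markers of leukocytes, epithelium and endothelium 8 stayed at 0.563 CPM or less in every library, Ptprc, Epcam and Pecam1 among them at 0 in some. The ninth, Cd68 of the leukocyte list, was at 5.47 to 8.75 CPM. Hspa1b, an inducible heat shock chaperone, was at 263 to 1214 CPM at 135 min of HS against 5.47 to 6.30 CPM in the control. Hspa5, the chaperone of the endoplasmic reticulum, was at 8805 to 9292 CPM at 405 min of tunicamycin against 656 to 735 CPM in the control, but at 135 min of tunicamycin it was at 333 to 491 CPM, below all 3 control samples (adjusted p = 0.135, edgeR). Ddit3, also looked at for tunicamycin, had log2 fold changes of 2.93, 1.54 and 5.215 at 45, 135 and 405 min (adjusted p = 0.000836, 0.0706 and 2.45e-06, edgeR). At 135 min of HS, Hspa5 (0.96) and Ddit3 (2.32) were higher than in the control too (adjusted p = 0.0312 and 0.0122, edgeR). Hspa5 was higher in HS than in tunicamycin at 135 min (1.67, adjusted p = 0.0218, edgeR), while Ddit3 did not pass that test (0.77, adjusted p = 0.263, edgeR). The HS libraries differed widely among themselves along an axis that held 66.6% of the within-group spread of all samples and followed the GC content of transcripts (a rank correlation, Spearman's rho, of 0.70 over 12443 genes, given as a description). HS 45 min replicate 3 and HS 135 min replicate 2 lay at its opposite ends, at scores of -0.70 and 0.63. Tu 135 min replicate 1 also stood apart from its group, at 0.45. The HS counts of genes called by edgeR are therefore also given without the 2 HS libraries at the ends.

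In the control samples the members' levels per length (RPKM, reads per kilobase of gene at a common library size) ran from 261 ± 28.1 for Pcna, the sliding clamp, to 2.69 ± 0.849 for the GINS subunit Gins3 (SD, n = 3). Pcna stood above every other listed member, with no overlap of its 3 samples with those of the next, Tk1, at 142 ± 12.2 RPKM. Tk1, Rpa1, Mcm5, Mcm7, Mcm3 and Mcm2 followed one another between 142 and 112 RPKM, and each had samples that overlapped those of its neighbour in this order. At the low end Cdc6, Rfc4, Pola1 and Gins3 lay at 7.15, 6.46, 4.80 and 2.69 RPKM. At 405 min of tunicamycin the order had changed at the top, where Pold2, a subunit of polymerase delta, was at 134, 135 and 141 RPKM and Pcna at 116, 124 and 129.8 RPKM, and these values did not overlap.

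The largest difference was at 405 min of tunicamycin, where 27 of the 37 listed members were lower than in the control and 1 was higher. Among all 12731 genes tested, 23.5% were lower and 23.3% higher by the same rule (edgeR's quasi-likelihood test, Benjamini-Hochberg adjusted p under 0.05). The median log2 fold change of the 37 was -0.91, beside -0.01 over all genes tested. The 3 samples at 405 min lay below all 3 control samples for 29 of the 37 members (29.5% of all genes) and above them for 2 (29.2%). Of the 7 genes under older symbols, 2 were lower, 3 were higher and 2 did not pass the test. The plot of fold changes by role shows the lower genes in all 9 roles and the 4 higher ones in 3 of them.

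**Figure D1:**
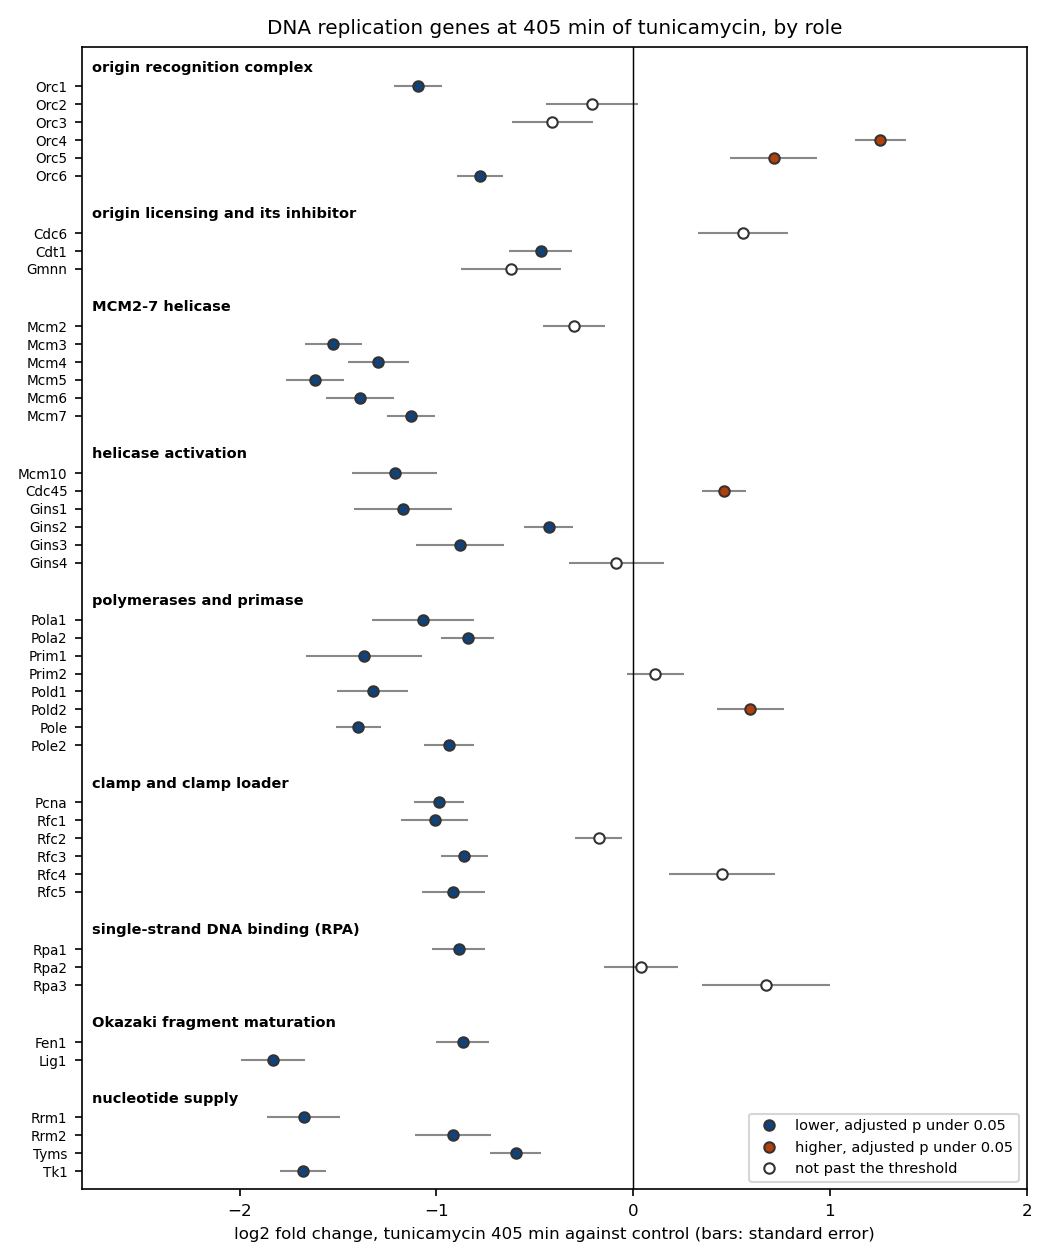
Log2 fold change at 405 min of tunicamycin against control (x axis, bars are standard errors) for the 44 replication genes grouped by role, with filled points past an adjusted p of 0.05. Lig1 (-1.83), Tk1 (-1.68), Rrm1 (-1.67) and Mcm5 (-1.62) stand farthest to the left, and Orc4 (1.26), Orc5 (0.71), Pold2 (0.59) and Cdc45 (0.46) are filled points on the right.

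Of the 6 ORC subunits, which mark origins, Orc1 and Orc6 fell, Orc4 and Orc5 rose, and Orc2 and Orc3 did not pass the test. Orc1 (chromosome 4, 108252059 to 108287436 of mm9), the largest subunit, was at 29.2, 29.2 and 27.4 CPM in the control and 13.97, 12.6 and 13.0 CPM at 405 min. The groups did not overlap, with a log2 fold change of -1.09 (SE 0.122, adjusted p = 0.000284, edgeR), where SE is the standard error and the p comes from edgeR's quasi-likelihood test over all genes. Orc6 (chromosome 8, 87823531 to 87832177) went from 41.3, 44.4 and 42.6 to 25.0, 23.1 and 25.6 CPM, all 3 treated samples lying below the control, at -0.78 (SE 0.116, adjusted p = 0.00108, edgeR). Orc4 (chromosome 2, 48758372 to 48804787) stood at 9.57, 10.9 and 10.2 CPM in the control and 22.7, 25.5 and 24.0 CPM at 405 min. It was the member with the largest rise, with every treated sample above every control sample and a log2 fold change of 1.26 (SE 0.130, adjusted p = 0.000198, edgeR). Orc5 (chromosome 5, 21992307 to 22056149) was at 4.19, 6.86 and 7.55 CPM in the control and 10.8, 10.001 and 9.23 CPM at 405 min. The groups did not overlap, at 0.71 (SE 0.220, adjusted p = 0.0279, edgeR), but 7 of the 15 alternative analyses did not call it. Orc4 overlaps Acvr2a, Orc5 overlaps LOC100042049 and Orc3 overlaps Akirin2 in the gene list, and whether reads were counted by strand is not given in the sources used here, so reads of these neighbours may be included.

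Of the 3 licensing factors Cdt1 fell, and Cdc6 and Gmnn did not pass the test. Cdt1, which delivers the helicase to ORC, was at 198, 150.3 and 134 CPM in the control and 115, 114 and 114 CPM at 405 min, lower in every sample at -0.47 (SE 0.161, adjusted p = 0.0417, edgeR), a call that 6 of 15 alternatives lost. Cdc6 (chromosome 11, 98769203 to 98785256), the other loading factor, was at 24.0, 47.6 and 41.4 CPM and then 58.3, 50.7 and 55.1 CPM. All 3 samples at 405 min lay above the control, yet the log2 fold change of 0.56 (SE 0.229, adjusted p = 0.0758, edgeR) did not pass the threshold. Gmnn (chromosome 13, 24843714 to 24853806), which encodes geminin, the inhibitor of Cdt1, was at 13.5, 26.6 and 26.2 CPM in the control and 12.3, 14.2 and 16.0 CPM at 405 min. Here 1 control sample lay among the treated ones, and the log2 fold change of -0.62 (SE 0.254, adjusted p = 0.0759, edgeR) did not pass the test.

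Of the 6 subunits of the MCM2-7 helicase 5 fell, and Mcm2 did not pass the test. Mcm5 (chromosome 8, 77633427 to 77652338) had 556, 473 and 439 CPM in the control and 177, 146 and 149.98 CPM at 405 min. The groups lay far apart, with a log2 fold change of -1.62 (SE 0.148, adjusted p = 0.000111, edgeR). Mcm3, Mcm6, Mcm4 and Mcm7 were also lower without overlap, at -1.52, -1.39, -1.29 and -1.13 on the log2 scale with adjusted p-values of 0.000132 to 0.000457 (edgeR), and these 5 subunits were called lower in every alternative analysis. Mcm2 (chromosome 6, 88833468 to 88848774), the remaining subunit of the same ring, had 531, 401 and 398 CPM in the control and 393, 338 and 336 CPM at 405 min. Its treated samples lay just below the control samples, and the log2 fold change of -0.30 (SE 0.157, adjusted p = 0.153, edgeR) did not pass the test. Whether Mcm2 differed from the other subunits in its response was not tested.

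E2F factors bind a short motif, here searched as TTTCCCGC, TTTCGCGC, TTTGCCGC or TTTGGCGC on either strand in the 250 bases before each gene's start, from RefSeq promoter sequences on GRCm38.p6. Entries were found for 36 of the 44 genes, and 9 of these (25%) held at least 1 match, beside 583 of 27025 genes (2.16%) in the whole promoter table. Among the 29 listed members with an entry, 7 held a match (24.1%), and 6 of those 7 (85.7%) were lower at 405 min, beside 17 of the 22 without a match (77.3%). A motif of other factors, CCAAT on either strand, stood before 62.1% of the 29 and 37.5% of all genes. The median log2 fold change at 405 min was -1.07 for the 7 members with an E2F match and -0.92 for the 22 without, values given as a description. The promoters of Mcm5 (chr8:75109341-75109440, + strand), Mcm6 (chr1:128359731-128359830, - strand), Mcm7 (chr5:138171964-138172063, - strand) and Orc1 (chr4:108579354-108579453, + strand) are shown for subunits that fell, and that of Cdc6 (chr11:98907998-98908097, + strand) for a loading factor that did not pass the test. Each is 100 bases read 5′ to 3′ along the gene, with the matched letters in capitals. Mcm5 holds 2 overlapping matches and Mcm6 holds 3, of which 2 overlap. Only promoters with a match are shown. Lig1, Tk1 and Rrm1, which had the largest falls, held no match. Another promoter entry of Mcm7 (chr5:138171267-138171516) held none either.
Mcm5: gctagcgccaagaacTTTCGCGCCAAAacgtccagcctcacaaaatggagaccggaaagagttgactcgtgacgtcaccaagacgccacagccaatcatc
Mcm6: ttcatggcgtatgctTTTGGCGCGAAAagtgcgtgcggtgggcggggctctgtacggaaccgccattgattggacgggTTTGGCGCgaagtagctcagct
Mcm7: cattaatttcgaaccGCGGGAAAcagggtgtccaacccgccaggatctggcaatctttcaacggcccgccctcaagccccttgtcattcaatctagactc
Orc1: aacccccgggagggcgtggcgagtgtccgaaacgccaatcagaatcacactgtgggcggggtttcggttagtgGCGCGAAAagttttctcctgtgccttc
Cdc6: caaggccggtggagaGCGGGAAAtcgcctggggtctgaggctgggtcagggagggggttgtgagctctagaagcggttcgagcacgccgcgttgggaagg
The match in Cdc6 is TTTCCCGC read on the other strand, the same letters as in Mcm7. A match is a run of letters and not a measured binding site, and a window without one says nothing about the factor.

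Of the 6 genes that activate the helicase, 4 fell and Cdc45 rose. Mcm10 (chromosome 2, 4911771 to 4933837), which helps start unwinding, was at 34.6, 61.8 and 58.5 CPM in the control and 24.0, 19.9 and 21.8 CPM at 405 min. The treated samples were all lower, at -1.21 (SE 0.216, adjusted p = 0.00259, edgeR). The GINS subunits Gins1, Gins3 and Gins2 were lower at -1.17, -0.88 and -0.43 (adjusted p = 0.00561, 0.0132 and 0.021, edgeR), while Gins4 had overlapping groups and -0.09 (adjusted p = 0.791, edgeR). Gins2, whose call 4 of 15 alternatives lost, overlaps Gse1 in the gene list. Cdc45 (chromosome 16, 18780540 to 18811732), the partner of GINS in the active helicase, was at 78.3, 74.9 and 74.7 CPM in the control and 111, 97.6 and 100.5 CPM at 405 min. Every treated sample was higher, at 0.46 (SE 0.112, adjusted p = 0.0105, edgeR). Without control replicate 3 the adjusted p of Cdc45 was 0.0513, and with 1 fit of all 6 groups it was 0.279 (edgeR).

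Among the polymerase and primase genes 6 of 8 fell. Pole (chromosome 5, 110715338 to 110766472), the catalytic subunit of polymerase epsilon on the leading strand, was at 107, 108 and 98.7 CPM in the control and 41.1, 36.8 and 39.5 CPM at 405 min. No treated sample came near the control, at -1.40 (SE 0.116, adjusted p = 7.05e-05, edgeR). The primase subunit Prim1 (-1.37), the catalytic subunit Pold1 of polymerase delta (-1.32), the polymerase alpha genes Pola1 (-1.07) and Pola2 (-0.84) and the epsilon subunit Pole2 (-0.94) were lower too, with adjusted p-values between 0.0007 and 0.0105 (edgeR). Prim2, the other primase subunit, had overlapping groups and 0.11 (adjusted p = 0.552, edgeR). Pold2 (chromosome 11, 5772185 to 5778259), the accessory subunit that binds Pold1, went the other way, with 227, 163 and 154 CPM in the control and 256, 271 and 282 CPM at 405 min. It was the only listed member called higher, at 0.59 (SE 0.170, adjusted p = 0.0208, edgeR), with treated samples all above the control samples. Its call was lost in 5 of 15 alternatives, among them leaving out Tu 405 min replicate 2 or 3 or control replicate 2 or 3 (adjusted p = 0.0684 to 0.0766, edgeR), and Pold2 overlaps Aebp1 in the gene list.

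Pcna (chromosome 2, 132075022 to 132078916), the clamp that tethers the polymerases, was at 357, 383 and 414 CPM in the control and 174, 196 and 203 CPM at 405 min. The groups did not overlap, at -0.99 (SE 0.126, adjusted p = 0.000524, edgeR). The clamp loader is built of 5 subunits, of which Rfc1 (-1.01), Rfc5 (-0.91) and Rfc3 (-0.86) were lower. Rfc1 (chromosome 5, 65653091 to 65726878), the large subunit, had 70.3, 105 and 99.5 CPM in the control and 50.3, 42.05 and 42.2 CPM at 405 min, with no overlap (adjusted p = 0.00201, edgeR). Rfc2 (-0.18, adjusted p = 0.253, edgeR) and Rfc4 did not pass the test. Rfc4 (chromosome 16, 23114021 to 23127803), which overlaps Eif4a2 in the gene list, had 5.52, 10.5 and 11.4 CPM in the control and 12.0, 14.8 and 10.1 CPM at 405 min, with overlapping groups and 0.45 (SE 0.271, adjusted p = 0.203, edgeR).

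RPA, the trimer that coats single-stranded DNA, had 1 subunit called. Rpa1 (chromosome 11, 75113850 to 75161806), the largest, was at 362, 462 and 412 CPM in the control and 231, 228 and 201 CPM at 405 min, lower in all 3 at -0.89 (SE 0.135, adjusted p = 0.0012, edgeR). Rpa2 had 0.04 (adjusted p = 0.875, edgeR). Rpa3 (chromosome 6, 8205937 to 8209141), the smallest subunit, had 33.8, 67.2 and 39.4 CPM and then 44.6, 83.1 and 92.6 CPM. Its samples spread widely in both groups, which overlapped, and 0.67 (SE 0.326, adjusted p = 0.122, edgeR) did not pass the test.

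Both genes that finish Okazaki fragments fell. Lig1 (chromosome 7, 13864175 to 13896776), the ligase that seals the fragments, was at 127, 184 and 167 CPM in the control and 49.2, 42.9 and 40.5 CPM at 405 min. It had the largest fall of the 44, at -1.83 (SE 0.162, adjusted p = 9.76e-05, edgeR), or 3.56-fold lower. Fen1 (chromosome 19, 10273629 to 10278433), the nuclease that trims their flaps, was at 85.4, 100.1 and 97.7 CPM and then 58.4, 49.1 and 45.6 CPM, again without overlap, at -0.87 (SE 0.135, adjusted p = 0.00134, edgeR).

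All 4 genes of nucleotide supply were lower. Tk1 (chromosome 11, 117676833 to 117687328), the thymidine kinase of S phase, was at 215, 228 and 237 CPM in the control and 65.2, 72.2 and 72.0 CPM at 405 min. The log2 fold change was -1.68 (SE 0.116, adjusted p = 3.44e-05, edgeR), and Tk1 overlaps Afmid in the gene list. Rrm1 (chromosome 7, 109590209 to 109618285), the large subunit of ribonucleotide reductase, went from 199.7, 305 and 299 to 94.4, 79.9 and 73.8 CPM. Its groups lay apart at -1.67 (SE 0.186, adjusted p = 0.000281, edgeR). The small subunit Rrm2 was lower at -0.92 (adjusted p = 0.00549, edgeR). Tyms (chromosome 5, 30385367 to 30400121), thymidylate synthase, had 69.8, 63.2 and 62.6 CPM in the control and 45.5, 37.4 and 44.4 CPM at 405 min, the smallest of the 4 differences at -0.60 (SE 0.130, adjusted p = 0.00639, edgeR). Of all 27 listed members lower at 405 min, 18 were called lower in each of the 15 alternatives run.

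**Figure D2:**
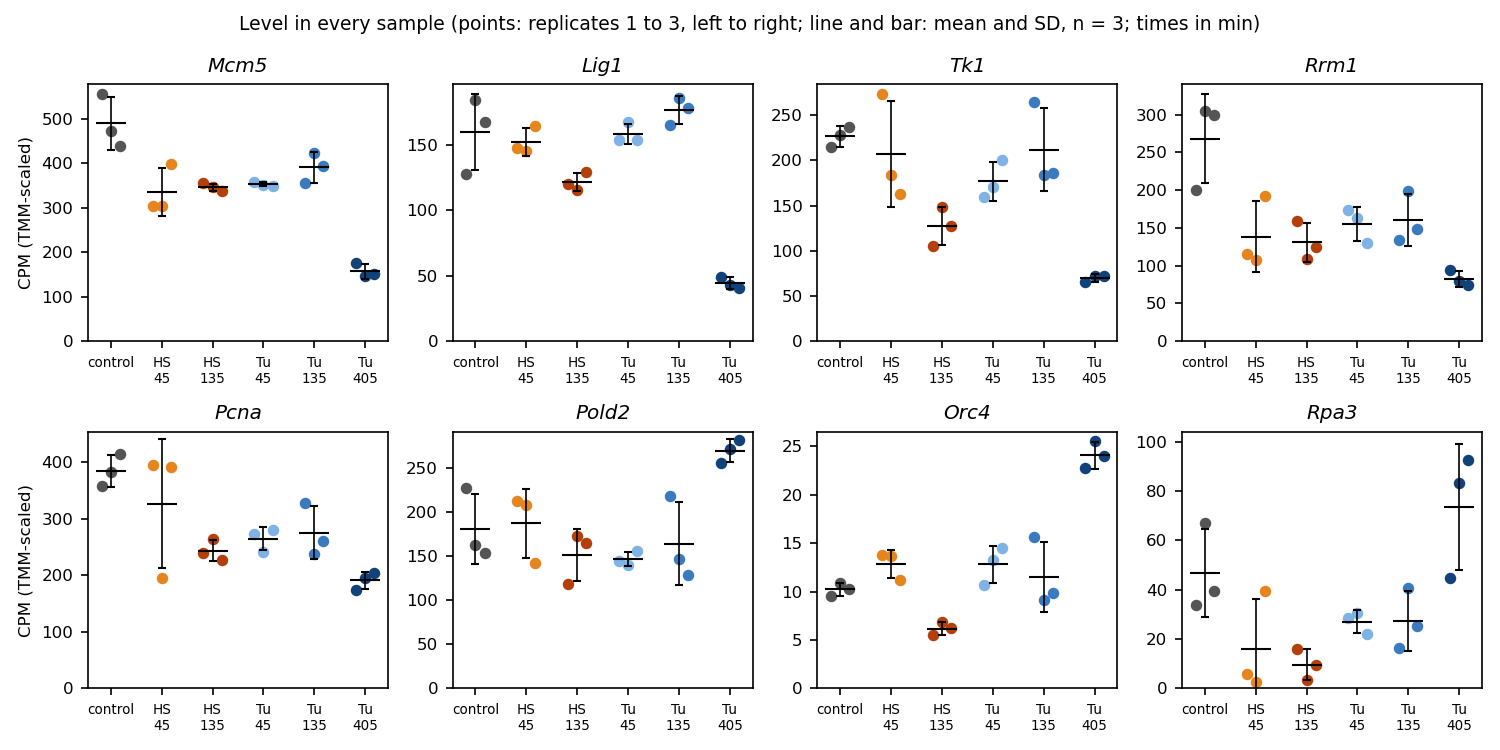
CPM in every sample (y axis, TMM-scaled) for 8 members in the 6 groups (x axis, times in min), with points for replicates 1 to 3 and lines and bars for the mean and SD (n = 3). Mcm5, Lig1, Tk1 and Rrm1 are lowest at 405 min of tunicamycin, Pold2 and Orc4 are highest there, and Rpa3 ranges from 2.74 to 39.4 CPM within HS at 45 min.

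The earlier tunicamycin samples showed little of this. At 45 min 1 listed member was lower (2.17% of all genes tested) and none higher (4.01%), with 7 lower and 0 higher by DESeq2, and 11 were lower and 0 higher at an unadjusted p under 0.05 (11.5% and 14.1% of all genes, edgeR). That member was Fen1, at 85.4, 100.1 and 97.7 CPM in the control and 49.6, 58.8 and 65.7 CPM at 45 min. The groups did not overlap, at -0.69 (SE 0.140, adjusted p = 0.0337, edgeR). Orc1, under its older symbol, was lower as well, at 15.8, 15.5 and 16.4 CPM and -0.83 (SE 0.123, adjusted p = 0.0124, edgeR). The count rested on single libraries, since leaving out any Tu 45 min sample or control replicate 2 or 3 gave 0 members lower and leaving out control replicate 1 gave 12. At 135 min no listed member was called in either direction by edgeR (0.00785% of all genes lower, 0.126% higher) or by DESeq2, with 4 lower and 0 higher at an unadjusted p under 0.05 (8.49% and 10.1% of all genes). The median log2 fold change of the 37 was -0.28 at 45 min and -0.13 at 135 min.

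Between 135 and 405 min of tunicamycin, with no control sample in the test, 20 of the 37 members fell (22.4% of all genes) and 2 rose (21.4%), with a median log2 difference of -0.68 beside -0.01 over all genes. Lig1 had the largest fall, from 165, 186 and 178 CPM at 135 min to 49.2, 42.9 and 40.5 CPM at 405 min. No sample at 405 min came near those at 135 min, at -2.02 (SE 0.133, adjusted p = 5.87e-05, edgeR). Tk1 followed, from 265, 184 and 186 CPM to the levels given above, at -1.62 (SE 0.175, adjusted p = 0.000401, edgeR). Mcm3 had 373, 367 and 396 CPM at 135 min and 147, 124 and 118 CPM at 405 min, at -1.57 (SE 0.136, adjusted p = 0.000156, edgeR). The listed members that rose were Rpa3, from 16.1, 40.5 and 25.1 CPM at 1.41 (SE 0.381, adjusted p = 0.0196, edgeR), and Pold2, at 0.69 (SE 0.204, adjusted p = 0.0269, edgeR). Rpa3 spread widely within each group, though the groups did not overlap. Of the genes under older symbols, Orc4 (1.04), Orc5 (0.93) and Cdc45 (0.79) rose and Orc1 (-0.83) fell, with adjusted p-values of 0.0026 to 0.01 (edgeR). This comparison shares its 405 min samples with the one against control, so the pair of counts is not independent. Leaving out Tu 135 min replicate 1 gave 26 lower and 5 higher.

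Under HS fewer members passed the test, and the spread between HS libraries was large. At 45 min none of the 37 was called in either direction (0.0% of all genes) by edgeR, nor by DESeq2, with 7 lower and 0 higher at an unadjusted p under 0.05 (7.16% and 12.3% of all genes). Without HS 45 min replicate 3, 15 members were lower and 2 higher (the share of all genes in that fit is not given here). Prim1, for example, was at 1.85, 1.26 and 18.7 CPM at 45 min of HS against 13.9, 32.3 and 28.6 CPM in the control, so that the third HS sample lay inside the control range and the other two far below it. At 135 min 3 of the 37 were lower (2.64% of all genes) and none was higher (4.75%) by edgeR, with 7 lower and 0 higher by DESeq2 and 11 lower and 0 higher at an unadjusted p under 0.05 (13.5% and 16.1% of all genes). The median log2 fold change of the 37 was -0.48, beside -0.02 over all genes tested. The 3 called members were Rpa3, Rrm1 and Tk1.

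Rpa3 had 15.8, 3.30 and 9.34 CPM at 135 min of HS against 33.8, 67.2 and 39.4 CPM in the control. All HS samples were lower, by amounts that differed several-fold among them, at -2.30 (SE 0.549, adjusted p = 0.0458, edgeR). Rrm1 had 159, 108 and 125 CPM against 199.7, 305 and 299 CPM, lower without overlap at -1.03 (SE 0.251, adjusted p = 0.0474, edgeR). Tk1 had 106, 149 and 128 CPM against 215, 228 and 237 CPM, also lower in every sample, at -0.83 (SE 0.201, adjusted p = 0.0464, edgeR). Orc6, under its older symbol, had 23.7, 13.6 and 19.2 CPM against 41.3, 44.4 and 42.6 CPM and -1.18 (SE 0.251, adjusted p = 0.0341, edgeR). These 4 calls lay close to the threshold and did not outlast the removal of HS 135 min replicate 3 or of control replicate 1, 2 or 3 (adjusted p between 0.0513 and 0.203, edgeR). Without HS 135 min replicate 2 the call of Rrm1 was lost as well (adjusted p = 0.0623, edgeR). The count was 4 without HS 135 min replicate 2, 7 without replicate 1, 1 without control replicate 1, and 0 without HS 135 min replicate 3, control replicate 2 or control replicate 3. Mcm5 had 354, 346 and 338 CPM at 135 min of HS, below all control samples but not past the threshold (-0.50, adjusted p = 0.133, edgeR), and Mcm2 had 359, 562 and 454 CPM, which overlapped the control (0.05, adjusted p = 0.91, edgeR).

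**Figure D3:**
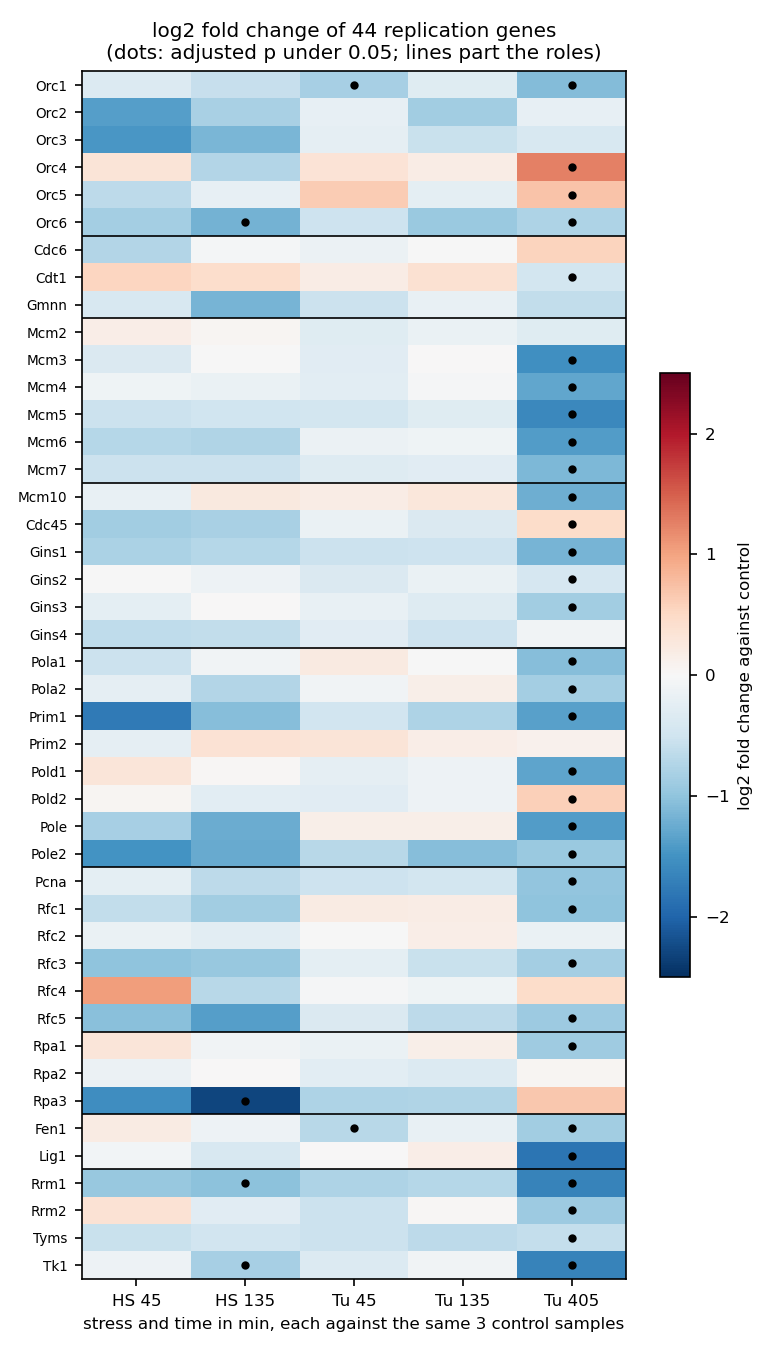
Log2 fold change (colour) of the 44 genes (rows, by role) in the 5 stress groups (columns), each against the same 3 control samples, with a dot where the adjusted p was under 0.05. The dots fill most of the column for 405 min of tunicamycin, while HS at 135 min has dots for Orc6, Rpa3, Rrm1 and Tk1, tunicamycin at 45 min for Orc1 and Fen1, and the other 2 columns have none.

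Values of the members within HS moved with the GC content of their transcripts. The log2 difference between HS 135 min replicates 2 and 1 correlated with GC content across the 37 members (Spearman's rho 0.55, a description across genes that share the 2 libraries), from -4.42 for Prim1 (44.3% GC) to 0.98 for Pold1 (60.7% GC). Between control replicates 1 and 2 the value was 0.60, and between Tu 135 min replicates 1 and 2 it was 0.44. For the log2 fold change at 135 min of HS it was 0.40, and for that at 405 min of tunicamycin 0.055. After an offset for GC content in each sample, which also removes any true difference that follows GC content, 10 members were lower and 1 higher at 135 min of HS, and 28 were lower and 3 higher at 405 min of tunicamycin. Shares of all genes called after this offset are not given here. The part of GC content in the HS results was not tested beyond the offset.

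**Figure D4:**
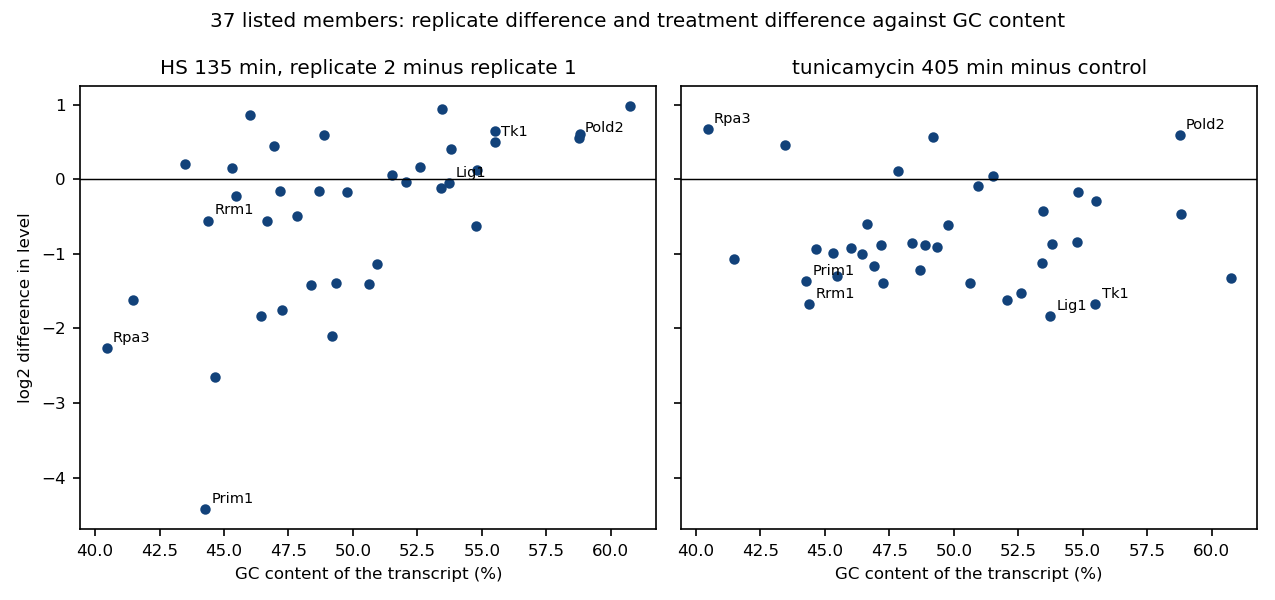
Each point is 1 of the 37 listed members, placed by the GC content of its transcript (x axis, %) and by a log2 difference in level (y axis), between HS 135 min replicates 2 and 1 on the left and between 405 min of tunicamycin and control on the right. Prim1, Pole2 and Rpa3, all of low GC content, lie lowest on the left (rho 0.55), while Rfc4, also of low GC content, lies at 0.20. No such slope is seen on the right (rho 0.055).

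The 2 stresses were also compared directly at matched times. At 45 min none of the 37 members differed between HS and tunicamycin by edgeR (0.141% of all genes lower in HS, 0.0628% higher), with 1 lower and 4 higher at an unadjusted p under 0.05 (9.65% and 14.4% of all genes) and 0 lower and 2 higher by DESeq2. Without HS 45 min replicate 3, 14 members were lower and 9 higher in HS (the share of all genes in that fit is not given here). At 135 min none differed by edgeR (0.817% and 1.3% of all genes), with 7 lower and 0 higher at an unadjusted p under 0.05 (9.75% and 10.2%) and 4 lower and 0 higher by DESeq2. Between 45 and 135 min of HS none of the 37 differed by edgeR (0.0% of all genes), with 3 lower and 0 higher at an unadjusted p under 0.05 (6.46% and 5.17%) and 1 lower by DESeq2. Leaving out HS 45 min replicate 3 or HS 135 min replicate 2 did not move these 2 zero counts by edgeR. There were no HS samples and no untreated samples at 405 min. The fall seen then under tunicamycin therefore has no HS or untreated counterpart here, and tunicamycin and elapsed time cannot be told apart.

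**Figure D5:**
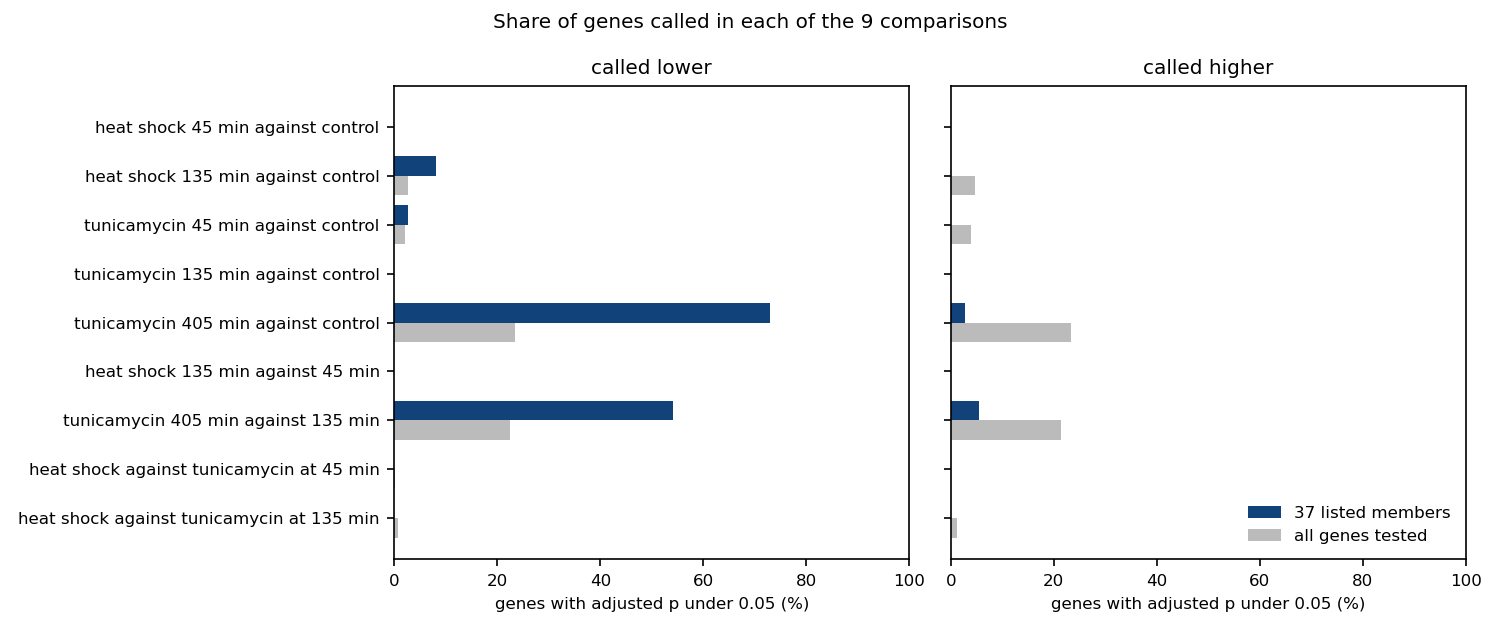
Share of genes called (x axis, % with an adjusted p under 0.05) among the 37 listed members (dark bars) and all 12731 genes tested (grey bars) in each of the 9 comparisons, lower on the left and higher on the right. At 405 min of tunicamycin against control 73.0% of the members and 23.5% of all genes were lower, and 2.7% and 23.3% were higher.

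Other genes of the replication machinery, 38 in all and none of them a member, included 22 that were lower at 405 min of tunicamycin, 3 higher and 13 not past the test (23.5% and 23.3% of all genes) and had a median log2 fold change of -0.80. Without control replicate 1 the counts were 28 lower and 6 higher (the share of all genes in that fit is not given here). The largest falls were in Uhrf1, which guides DNA methylation to new DNA, at 382, 319 and 312 CPM in the control and 89.4, 68.2 and 51.2 CPM at 405 min (-2.26 (SE 0.211, adjusted p = 0.000123, edgeR)). Wdhd1, which links the helicase to polymerase alpha, and Clspn, a mediator of the replication checkpoint, followed at -1.97 (SE 0.215, adjusted p = 0.000252, edgeR) and -1.97 (SE 0.187, adjusted p = 0.000132, edgeR). The 3 that rose were Recql4 (1.01 (SE 0.124, adjusted p = 0.000441, edgeR)), Pold4 (0.93 (SE 0.162, adjusted p = 0.00228, edgeR)) and Mtbp (0.72 (SE 0.136, adjusted p = 0.00346, edgeR)). Recql4 and Mtbp act in origin firing, and Pold4 is the smallest subunit of polymerase delta, the enzyme that also holds Pold2. Mtbp had 38.5, 46.8 and 44.8 CPM in the control, 64.4, 59.3 and 66.0 CPM at 45 min and 78.2, 62.4 and 69.9 CPM at 405 min of tunicamycin, and its rise at 45 min passed the test too (0.56 (SE 0.130, adjusted p = 0.0474, edgeR)). Rnaseh2c, a subunit of the enzyme that removes RNA from DNA, fell at 45 min (-1.06 (SE 0.152, adjusted p = 0.0119, edgeR)). These were the 2 of the 38 called at 45 min (2.17% of all genes lower, 4.01% higher). Neither was called without Tu 45 min replicate 2 or control replicate 2 or 3, Mtbp was not called without Tu 45 min replicate 1 or 3 either, and without control replicate 1 the counts were 6 lower and 3 higher.

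Against 135 min of tunicamycin, 20 of the 38 were lower (22.4% of all genes) and 5 higher (21.4%) at 405 min. The higher count was 3 without Tu 135 min replicate 2 or any 1 of the Tu 405 min samples. The largest falls were in Clspn (-2.36 (SE 0.138, adjusted p = 4.16e-05, edgeR)) and Uhrf1 (-2.24 (SE 0.249, adjusted p = 0.000457, edgeR)). The largest rises were in Dut, which removes dUTP (1.05 (SE 0.130, adjusted p = 0.000722, edgeR)), Pole4, a small subunit of polymerase epsilon (0.94 (SE 0.211, adjusted p = 0.00928, edgeR)), and Recql4 (0.65 (SE 0.203, adjusted p = 0.0342, edgeR)). Against control at 405 min, Dut (0.31, adjusted p = 0.185, edgeR) and Pole4 (0.55, adjusted p = 0.0644, edgeR) did not pass the test. At 135 min of HS 2 of the 38 were lower (2.64% of all genes) and none was higher (4.75%). The lower genes were Clspn (-1.36 (SE 0.280, adjusted p = 0.0306, edgeR)) and Rnaseh2a (-0.86 (SE 0.190, adjusted p = 0.038, edgeR)). Both calls were lost without HS 135 min replicate 3, control replicate 2 or control replicate 3, and that of Rnaseh2a without control replicate 1. The count was 3 without HS 135 min replicate 2 and 8 without replicate 1. At 45 min of HS none of the 38 was called (0.0% of all genes), but 14 were lower and 5 higher without HS 45 min replicate 3. The share of all genes in that fit is not given here, so these counts cannot be set against it.

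Of 13 genes of the E2F and pocket protein families, which switch replication genes on and off, 7 were lower at 405 min of tunicamycin (23.5% of all genes) and 6 did not pass the test in either direction (23.3% of all genes higher). Without control replicate 1 the counts were 10 lower and 1 higher (the share of all genes in that fit is not given here). E2f1, an activator, was at 165, 107 and 100.4 CPM in the control and 53.7, 51.9 and 49.5 CPM at 405 min, lower in every sample at -1.25 (SE 0.199, adjusted p = 0.00151, edgeR). E2f2, another activator, was lower at -1.84 (SE 0.217, adjusted p = 0.00036, edgeR). Against 135 min of tunicamycin, where 7 of the 13 were lower at 405 min too and none higher (22.4% and 21.4% of all genes), E2f2 went from 9.78, 7.59 and 7.58 to 1.37, 1.99 and 1.46 CPM, without overlap and at -2.39 (SE 0.224, adjusted p = 0.000216, edgeR). The repressors E2f7 and E2f8 were lower as well, at -0.57 (SE 0.122, adjusted p = 0.00633, edgeR) and -1.29 (SE 0.195, adjusted p = 0.00117, edgeR). At 135 min of tunicamycin E2f8 had stood at 76.4, 70.7 and 71.1 CPM, above the control samples at 34.4, 59.2 and 52.5 CPM, a log2 fold change of 0.59 (SE 0.218, adjusted p = 0.213, edgeR) that did not pass the test. E2f2 was the family's only called gene under HS, at 11.4, 18.8 and 15.2 CPM at 135 min against 6.90, 5.46 and 5.19 CPM in the control (1.37 (SE 0.280, adjusted p = 0.03, edgeR)), a rise that was lost without HS 135 min replicate 3 (adjusted p = 0.15, edgeR) or control replicate 2 or 3 and stayed called without HS 135 min replicate 2. At 45 min of HS none of the 13 was called (0.0% of all genes), but 3 were lower and 1 higher without HS 45 min replicate 3 (the share of all genes in that fit is not given here).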

How the data were processed

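The mRNA-seq data comprised 18 libraries of NIH3T3 cells in 6 groups of 3, grouped and numbered by their labels. Per the paper's methods, poly(A) RNA was sequenced on an Illumina HiSeq instrument, and reads were aligned to mm9 (the build also named in the submitters' processing notes) and counted against RefSeq genes on DNAnexus. The aligner, the counter, their versions and the use of strand are not given in the sources used here. The authors deposited for each gene an estimated count, not normalized, and an RPKM value that they made from it. They also deposited a score (the RPKM minus its mean over genes, divided by the SD) and a signal (the RPKM divided by its root mean square), which were not used. Files were joined by gene name, because the coordinates of 741 genes differ between files.

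Estimated counts were rounded to whole numbers and tested with the quasi-likelihood test of edgeR 4.0.16 (R 4.3.3) after TMM scaling, on the 3 samples of either group, with Benjamini-Hochberg adjustment over 12731 genes, those with 1 or more reads in each of the 18 samples. A gene is called lower or higher at an adjusted p under 0.05. The deposited RPKM was used only to order the members by level. On simulated data for 12731 genes, with 100 genes changed by each size, the test recovered 75% of changes of 1 log2 unit and 94% of changes of 2 at 405 min of tunicamycin, and 17% and 85% at 135 min of HS. The simulation held no shared GC axis and fewer changed genes than were called in either comparison. These shares are therefore not recovery rates of the real comparisons. The members and gene lists were chosen with earlier results of these data known. Values per sample are given for the lowest and highest member of each role at 405 min, for members called in another comparison (the 3 largest rises and falls where over 6 were called) and for members called against the majority, and some further members were named after their values were seen. Of the other replication and E2F genes, the 3 largest rises and falls called in a comparison were named, with E2f1, E2f7 and E2f8.

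Total counts on genes ran from 33415592 to 66478268 per library, so that the errors of most members reflect the spread between samples more than counting. Replicates were compared by chi-square over 11862 to 12528 genes, and none agreed within sampling noise. Alternatives were DESeq2 1.42.0, its size factors, total counts, edgeR's filterByExpr, no filter, 1 fit of all 6 groups, an offset for transcript GC content (lowess span 0.3, with GC content for 97.7% of the genes tested and all 37 members), the replicate number as a block, both together, and leaving out each sample. Shares of all genes called are given only for the edgeR test described above, so counts from the alternatives stand without such a share. Replicate numbers come from the labels, which do not say that a number marks a shared batch. Deviations of same-numbered samples from their group means correlated at 0.287, 0.236 and 0.194 between tunicamycin at 135 min and control. In no other comparison were all 3 over 0.1. Replicate 1 of these 2 groups lay on the same side of the GC axis (0.45 and 0.19), so pairing and this axis cannot be told apart here. The main fits took no pairing into account. Promoter sequences came from RefSeq on GRCm38.p6. Tables and figures were made in Python 3.11.15 (pandas 2.3.3, numpy 2.4.6, matplotlib 3.10.9).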

Additional observations from a re-analysis of the deposited data

Results flagged for a closer look

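2 of the 38 replication genes outside the 44 differed between HS and tunicamycin at 135 min by a direct test of one stress against the other. Both were lower in HS (0.817% of all genes lower, 1.3% higher). Clspn, a mediator of the replication checkpoint, was at 39.0, 22.8 and 29.2 CPM under HS and at 101, 94.0 and 103 CPM under tunicamycin, a log2 difference of -1.74 (standard error 0.234, adjusted p = 0.0254, edgeR), and the groups did not overlap. Ticrr, a factor of origin firing listed as 5730590G19Rik, was at 30.3, 20.8 and 25.4 CPM under HS and at 54.3, 72.5 and 64.4 CPM under tunicamycin, a log2 difference of -1.35 (standard error 0.225, adjusted p = 0.0404, edgeR), again without overlap. Over the alternatives the difference kept its sign, from -1.97 to -1.54 for Clspn and from -1.50 to -1.18 for Ticrr. The call was lost in 6 alternatives for Clspn and 7 for Ticrr, among them each of the 3 fits without a Tu 135 min sample (adjusted p = 0.0967 to 0.178 for Clspn and 0.0973 to 0.221 for Ticrr, edgeR). Without HS 135 min replicate 2, which stood apart, Ticrr was not called (adjusted p = 0.0628, edgeR) and Clspn was. Both were also lower under HS than in the control, at -1.36 for Clspn (adjusted p = 0.0306, edgeR) and -0.87 for Ticrr, which did not pass the test (adjusted p = 0.0508, edgeR). Under tunicamycin at 135 min both lay above all 3 control samples, though neither passed the test. The log2 fold changes there were 0.37 for Clspn (adjusted p = 0.36, edgeR) and 0.47 for Ticrr (adjusted p = 0.219, edgeR). The cause was not tested.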

How the results depend on the processing

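The falls at 405 min of tunicamycin kept their count within 19 to 30 of the 37 listed members over all alternatives, and those against 135 min within 17 to 26. The low of 19 came from an alternative other than the GC offset, the block or leaving out a sample. The counts under HS, at 45 min of tunicamycin and among members that rose were small and moved with the processing. With 1 fit of all 6 groups, members lower numbered 3 at 45 min of HS, 12 at 135 min of HS, 2 between 45 and 135 min of HS and 5 in HS against tunicamycin at 135 min, and members higher numbered 0 at 405 min of tunicamycin, 1 against 135 min and 1 in HS against tunicamycin at 45 min. DESeq2 gave 7 lower at 135 min of HS, 7 at 45 min of tunicamycin, 1 between the HS times, and 2 higher (45 min) and 4 lower (135 min) in HS against tunicamycin. Its size factors and filterByExpr each gave 2 lower at 45 min of tunicamycin, and total counts gave 2 lower in HS against tunicamycin at 135 min. Total counts moved the median log2 fold change of all genes by -0.16 at 45 min and -0.17 at 135 min of HS, by 0.11 at 45 min of tunicamycin, and by -0.27 (45 min) and -0.15 (135 min) in HS against tunicamycin. The GC offset gave 10 lower and 1 higher at 135 min of HS, 8 lower at 45 min and 3 higher at 405 min of tunicamycin, 4 higher against 135 min, and 1 higher (45 min) and 4 lower (135 min) in HS against tunicamycin. Blocking on replicate number gave 0 lower at 135 min of HS and 0 at 45 min of tunicamycin, 25 lower at 405 min, and 17 lower and 1 higher against 135 min, and the block with the GC offset gave 1, 2 and 29 lower at these 3 points and 3 higher at 405 min. At 135 min of tunicamycin against control, where same-numbered samples deviated alike, the block called 0 members, as without it. Of the 6 samples compared, all 6 correlated best with their own number there and at most 3 in any other comparison, a hint from the data and not from the design. Leaving out each sample in turn gave 0 to 15 lower and 0 to 2 higher at 45 min of HS, 0 to 7 lower at 135 min of HS, 0 to 12 lower at 45 min of tunicamycin, 24 to 30 lower and 0 to 2 higher at 405 min, 17 to 26 lower and 0 to 5 higher against 135 min, and 0 to 14 lower and 0 to 9 higher in HS against tunicamycin at 45 min. For single named genes, 1217 of the values kept direction and side of the threshold, 151 lost the call, 12 gained it and none changed sign. The causes were not tested. No member was at or under the floor of 3 reads in any library, and an effect of depth was not tested.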
